A study of Gallus gallus with 6 samples.

Results

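The 287 loci described here are the positions of sequences that the study listed as NSSCs. They lay off every hairpin that its known lists gave with a position, and had a hairpin with under 55% G and C. The day 10 known list also had 363 lines with a sequence and no position, and overlap with these was not checked. NSSC was the study's name for sequences it categorized as unique and not reported earlier. Their absence from miRBase was not checked here. The loci were taken from the NSSC lists of all 6 libraries, which held 614 distinct loci, each a chromosome, strand, start and end. Of these, 96 had a hairpin that overlapped a hairpin of the known lists by at least 1 base on the same strand, and 518 did not. The 518 were divided by the deposited hairpin GC content into 287 loci below 55%, called GC-low loci here, and 231 loci at 55% or more, called GC-rich loci. Just inside the limit stood chr4:3214464-3214484 at 54.9% (6 reads at most) and chr11:21850660-21850680 at 54.9% (2 reads), and just outside it chr1:2520950-2520970 at 55% (4 reads) and chr1:184656638-184656659 at 55% (7 reads). The lowest GC content was 28.6%, at chr2:39373925-39373945.

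Small RNA of 18 to 30 nt was taken from chick embryo hearts, and each of 6 stages gave 1 library from pooled RNA. The stages were day 4 of incubation (stage HH24), day 6 (stage HH29), day 8 (stage HH34), day 10 (stage HH36), day 12 (stage HH38) and day 14 (stage HH40). How many hearts entered a pool is not named. No stage was sequenced again, so values at different stages stand side by side without a test between them.

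A miRNA is cut from the stem of a folded precursor, first in the nucleus by Drosha and then in the cytoplasm by Dicer. One arm, the mature strand, is usually kept in an Argonaute protein, and the other arm, the star strand, is mostly degraded. Bases 2 to 8 of the mature strand, the seed, pair with target mRNAs, and animal miRNAs often begin with U. In the heart, miR-1 and miR-133 are muscle miRNAs transcribed from shared clusters, and miR-126 marks endothelium.

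RPM is the authors' unit of reads per 1000000 reads, and the library totals it implies ran from 228290 on day 14 to 37495800 on day 12. They were 9246260, 5588950 and 3428090 on days 6, 8 and 10. On days 6 and 12 the total was near the paper's clean reads of the library, and on the other days it was a small part of them. The same share of clean reads thus gave a higher RPM on days 8 and 10 than on days 6 and 12. Each list also had a lowest value, 2 reads on day 10 and 6 reads on the other days, so a locus not listed on a day may still have had reads below that value. On day 10 all mature sequences of the 3 kinds of NSSC loci were 21 nt long. On day 8 those of all 16 GC-low loci were 23 nt long. Of the 14 families chosen to check the tissue label, the muscle and heart family miR-133 was listed in 5 libraries, miR-206 in 2 and miR-499 in 1, while miR-1 and miR-208 were in no known list. The endothelial family miR-126 was listed in 5. Of families known from other tissues, miR-205, miR-200 and miR-203 of epithelia were listed in 6, 4 and 2 libraries, miR-9 and miR-124 of neural tissue in 5 and 2, and miR-122 of liver in 5. Of the red blood cell families, miR-144 was in 2 and miR-451 in none. Numbers of libraries do not give the amounts. The most reads in a library were 876501 for miR-126, 712093 for miR-499 and 17548 for miR-133. They were 7829 for miR-205, 5824 for miR-9 and 4939 for miR-122. These maxima came from different days. On day 6, miR-133 had 3020 reads, fewer than miR-205, miR-9 and miR-122, while miR-126 had 62609. On day 8, miR-126 and miR-499 were not listed, with 102 reads of miR-133, 4685 of miR-9 and 1548 of miR-205. The day 4 list held no miR-133, with 60 reads of miR-126, 20 of miR-9 and 13 of miR-205. From day 10 on, miR-133 had more reads than miR-205, miR-9 and miR-122. The part of other tissues in the values below was not tested.

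The following sequences carry the main observations. They are written 5′ to 3′ from the deposited lists with T for U, positions are those of the lists on the Gallus gallus v.2.1 genome, and capitals mark the seed. The first set holds leading sequences of days 6, 8 and 10 and sequences of hairpins described below, some with their length forms, and is not a full ranking by reads.
chr3:76659806-76659828 (+): tTGACTTCagtaggagcaggatt
chr3:76659807-76659827 (+): tGACTTCAgtaggagcaggat
chr6:24570078-24570101 (+): tGAGAACTgaattccataggcgtt
chr6:24570078-24570100 (+): tGAGAACTgaattccataggcgt
chr6:24570116-24570136 (+): tGCCCTATggattcagttctg
chr8:21474364-21474386 (-): tCGTGGAAttttttgaggctccg
chrZ:41158218-41158238 (+): tGGCTCAGttcagcaggaaca
chr4:91911632-91911653 (-): tTTCCAACcttcgtgattctga

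The second set is shown for position or likeness to known miRNAs. The sequence at chr2:105673494-105673514 (-) and at chr20:8107877-8107897 (+) was the same, and the known miR-302 and miR-146 sequences of the lists stand beside the loci that shared their seeds.
chr2 and chr20 locus: gGAATGTAaagaagtatgtat
chr4:58651920-58651940 (+): aAAGTGCTtccatgttttagt
known miR-302: tAAGTGCTtccatgttttagt
known miR-146: tGAGAACTgaattccatggact
chr17:5577871-5577892 (+): aGAATTGTgtctggacatctgt

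Next, 3 hairpins are given whole, with the mature sequence in capitals. In the chr6 hairpin the capitals mark the 3′ arm, listed as mature on day 10. Its 5′ arm, listed as mature on days 6 and 8, is in lower case there.
chr3:76659769-76659827 (+): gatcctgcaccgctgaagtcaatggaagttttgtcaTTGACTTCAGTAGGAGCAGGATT
chr6:24570065-24570147 (+): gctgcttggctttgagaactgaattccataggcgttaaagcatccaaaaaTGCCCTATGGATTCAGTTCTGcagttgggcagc
chr4:91911585-91911660 (-): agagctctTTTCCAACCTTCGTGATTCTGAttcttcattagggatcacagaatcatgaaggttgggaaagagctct

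The GC-low loci were found mostly on days 10 and 12. The lists of days 4, 6, 8, 10 and 12 held 1, 15, 16, 189 and 82 of them, and that of day 14 held none. Day 10 thus listed 65.9% of the loci (95% Wilson interval 60.2 to 71.1%, which treats loci as independent although those of 1 library share their source). That share moved with the read minimum: at 6 reads, the lowest value of the other lists, day 10 listed 17 of 118 loci (14.4%), and at 10 reads 14 of 45 (31.1%). Of the 287 loci, 273 were in 1 library, and 184 of these were listed on day 10 alone, 69 on day 12 alone and 20 on an earlier day alone. GC-low loci made up 25.9%, 16.5%, 52.4% and 53.2% of the NSSC loci of days 6, 8, 10 and 12. GC-rich loci numbered 33, 27, 141 and 59 on the same days. As listed, GC-rich loci were the more numerous on days 6 and 8 and GC-low loci on days 10 and 12. The order on day 10 depended on the read minimum. At 6 reads, day 10 listed 17 GC-low and 19 GC-rich loci, and at 10 reads 14 and 12. The day 12 numbers also rested on the list's lowest value of 6 reads, where 43 of 82 GC-low and 19 of 59 GC-rich loci stood. At 10 reads, day 12 listed 21 GC-low and 17 GC-rich loci.

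**Figure D1:**
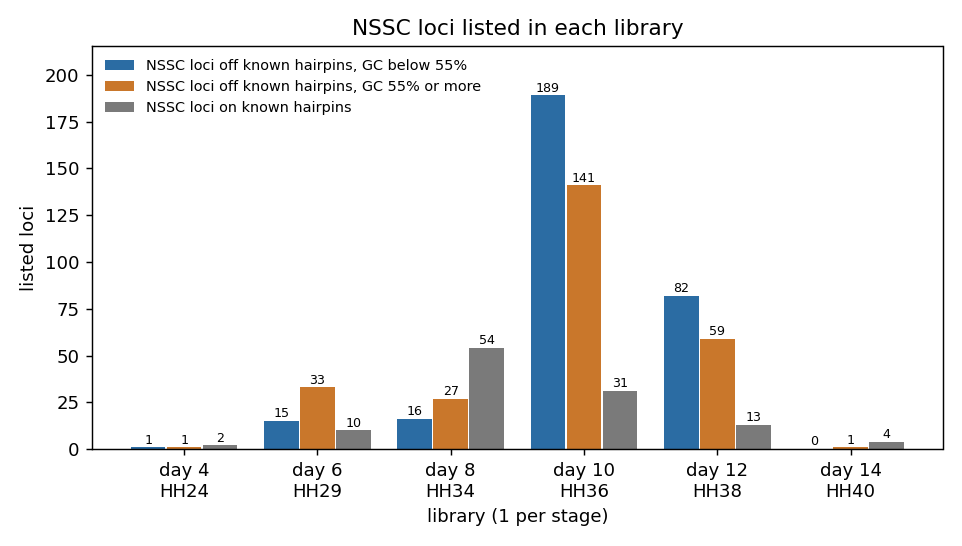
Number of NSSC loci (vertical axis) in each of the 6 libraries, for loci off known hairpins with GC below 55%, off known hairpins with GC of 55% or more, and on known hairpins. The GC-low loci number 16, 189, 82 and 0 on days 8, 10, 12 and 14.

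Most GC-low loci rested on few reads. The median was 6 reads on day 4, and 15, 13, 2 and 6 reads on days 6, 8, 10 and 12. On day 10, 122 of 189 loci (64.6%) stood at the list's lowest value of 2 reads, and on day 12, 43 of 82 stood at its lowest value of 6. Only 45 of the 287 loci reached 10 reads in any library and 8 reached 100. Reads were held by a few loci, since the 3 leading loci had 89.0%, 95.5%, 45.6% and 53.8% of the GC-low reads of days 6, 8, 10 and 12.

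**Figure D2:**
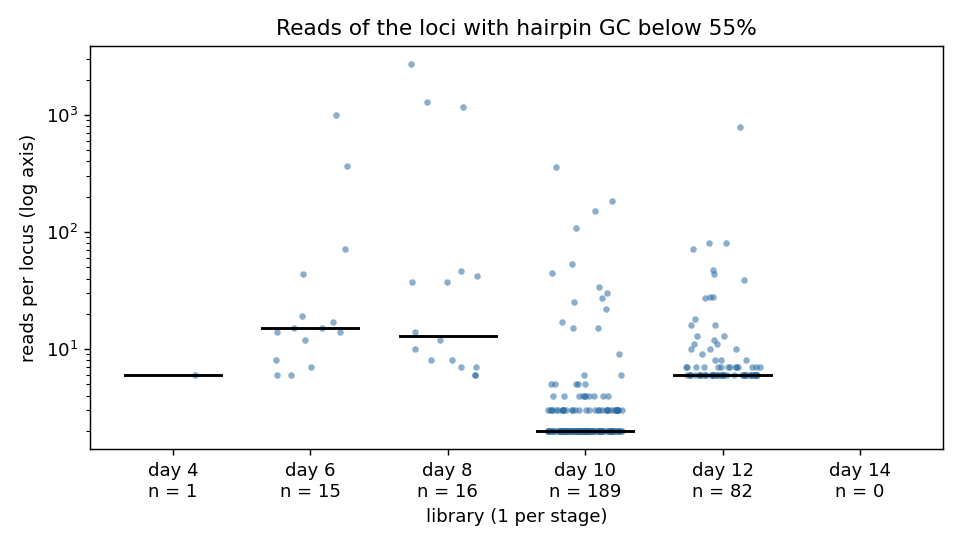
Reads of each GC-low locus (points, log axis) in each library, with the median as a bar. Medians lie at 15, 13, 2 and 6 reads on days 6, 8, 10 and 12, and 1 locus of day 8 reached 2703 reads.

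As a share of the reads behind the RPM values, the GC-low sequences took 0.0174% on day 6 (95% Wilson interval 0.0166 to 0.0183%) and 0.0963% on day 8 (interval 0.0938 to 0.0989%). The share was 0.0439% on day 10 (interval 0.0417 to 0.0462%) and 0.00469% on day 12 (interval 0.00448 to 0.00492%). These intervals cover counting error only. On days 8 and 10 the reads behind RPM were a small part of the clean reads, so the order of the days holds for that base alone. The GC-low loci were 52.4% of the NSSC loci on day 10 but held 4.47% of the NSSC reads, and on day 12 they were 53.2% of the loci with 1.98% of the reads. NSSC loci on known hairpins held 86.0% and 96.0% of the NSSC reads on those days, from 31 and 13 loci.

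The leading GC-low sequence of any library was at chr8:21474364-21474386, with 2703 reads on day 8 (484 RPM) and in no other library. It was listed with 6 genomic hits, and the position of its reads among those hits cannot be told from the list. It was followed on day 8 by the chr3 sequence that starts the first set above (1276 reads) and by the 23-nt chr6 sequence (1163 reads).

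Joining loci whose hairpins overlapped on 1 strand left 269 hairpins, of which 254 held 1 locus, 12 held 2 and 3 held 3. Most joined loci were length forms of 1 arm, and 4 hairpins had both arms listed. By locus, 14 of 287 (4.88%) were in 2 or more libraries, against 27 of 231 GC-rich loci (11.7%) and 13 of 96 loci on known hairpins (13.5%). With at least 10 reads the shares of the 3 kinds were 20.0%, 26.4% and 13.4%, and without the day 10 library 9.71%, 25.3% and 16.4%. By hairpin, 23 of 269 (8.55%) were in 2 or more libraries, against 31 of 219 (14.2%) and 21 of 80 (26.2%). Of the 23, 15 were joined from several loci, and 8 were in 3 or more libraries. These 8 are numbered by the number of libraries and then by their reads.

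Hairpin 1, on chromosome 3, was in 4 libraries. Its 23-nt sequence had 368 reads on day 6 (39.8 RPM), 1276 on day 8 (228 RPM) and 784 on day 12 (20.9 RPM). On day 10 it was listed as the 21-nt form that lacks 1 base at each end, with 22 reads (6.42 RPM) and 8 star reads. In RPM, day 8 was the highest of the 4 libraries, and its counting interval (216 to 241 RPM) did not overlap those of the others (35.8 to 44.1, 4.02 to 9.72 and 19.5 to 22.4 RPM on days 6, 10 and 12). The totals behind RPM were unlike parts of the clean reads, so this order holds for RPM alone. The star strand on day 10 was read from the other arm of the hairpin shown above.
chr3 star strand: tcctgcaccgctgaagtcaat

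Hairpin 4, on chromosome 6, had its 5′ arm listed on days 6 and 8 and its 3′ arm on day 10. The 5′ arm had 993 reads as a 24-nt form on day 6 (107 RPM) and 1163 as a 23-nt form on day 8 (208 RPM). On day 10 the 3′ arm had 184 reads (53.7 RPM), and 5 star reads came from the 5′ arm. The arm with more reads on day 10 was the opposite one to the arm listed on days 6 and 8. The mature sequences of the day 10 NSSC list were all 21 nt long, and the 5′ arm was 24 and 23 nt long on days 6 and 8. Star strands of the day 10 list were not all 21 nt long. Whether length bears on the difference in arm was not tested. The 5′ arm shared its seed with miR-146, an immune-associated miRNA family of vertebrates, and 17 bases in a row with the known miR-146 sequence of the lists. Its hairpin overlapped no known hairpin.

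The other 6 of these hairpins had at most 81 reads in any library. Hairpin 2, on chromosome 1, had 15, 46, 30 and 47 reads on days 6, 8, 10 and 12 (1.62, 8.23, 8.75 and 1.25 RPM), as a 23-nt form on days 6 and 8 and as a 21-nt form on days 10 and 12. Hairpin 3, on chromosome 5, had 14, 37, 2 and 39 reads on the same days (1.51, 6.62, 0.583 and 1.04 RPM). In RPM, both were higher on day 8 than on days 6 and 12, with intervals that did not overlap. Their reads on days 8 and 12 were nearly equal, and the order holds for RPM alone.

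Hairpin 5, on chromosome 4, had 71 reads on day 6, 17 on day 10 and 81 on day 12 (7.68, 4.96 and 2.16 RPM). Its mature sequence was paired at every base, and its hairpin energy per nt was -0.684 kcal/mol, against a median of -0.343 over the GC-low loci. On day 10 its 21-nt form was placed in a hairpin of 166 nt with -115.6 kcal/mol, the lowest energy of the GC-low loci, and with 7 genomic hits against 1 for the 22-nt form. Hairpin 6, on chromosome 3, had 15, 42 and 28 reads on days 6, 8 and 12, each as another length form, with 1 star read on day 12. Hairpin 7, on chromosome 1, had 19, 3 and 28 reads on days 6, 10 and 12.

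Hairpin 8, at chr3:59307930-59307950, was the locus with a star strand in the most libraries. It had 14 reads on day 6, 25 on day 10 and 16 on day 12 (1.51, 7.29 and 0.427 RPM), with 2, 1 and 3 star reads. Its day 10 interval of 4.72 to 10.8 RPM lay above those of days 6 and 12, an order that holds for RPM alone.

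**Figure D3:**
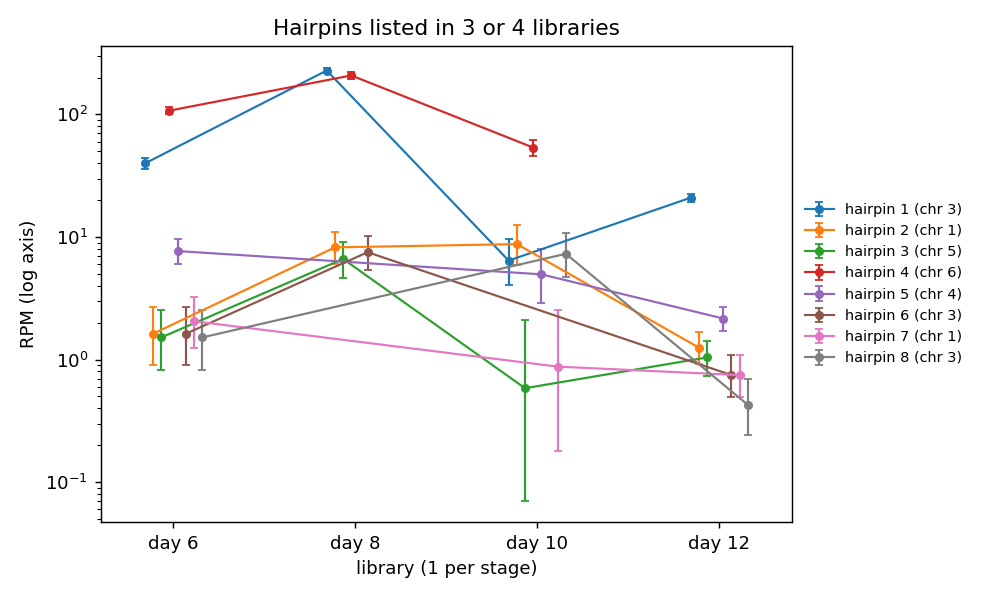
RPM (log axis) of the 8 GC-low hairpins listed in 3 or 4 libraries, by library, with 95% Poisson intervals of the reads. Lines join the libraries in which a hairpin was listed. Hairpins 1 and 4 lie above the others on days 6 and 8, at 39.8 to 228 RPM. Every hairpin listed on days 8 and 12 had a higher RPM on day 8, where RPM rests on a small part of the clean reads.

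The remaining loci in 2 or more libraries were in 2 each. chr1:109289251-109289273 had 37 reads on day 8 and 44 on day 12. chr11:1160745-1160766 had 44 on day 6 and 81 on day 12, with 2 genomic hits. chr7:7305446-7305466 had 4 on day 10 and 18 on day 12, with 3 genomic hits. chr1:68169976-68169997, chr2:146119650-146119671, chr8:9751822-9751842 and chr4:3214464-3214484 had 2 to 10 reads in each of their libraries. With so few reads, a locus seen in 1 library alone was not shown to be specific to that stage.

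Some GC-low loci lay beside known miRNAs. Of the 287 loci, 14 (4.88%) had a hairpin within 10000 bases of a known hairpin on the same strand, against 5 of 231 GC-rich loci (2.16%). The most read on day 10 was chrZ:41158218-41158238, with 359 reads (105 RPM), 446 bases from the miR-27 hairpin and 689 from the miR-23 hairpin. In RefSeq's annotation of a later assembly, MIR23B and MIR27B on this chromosome neighbour 1 other miRNA gene, MIR24-2. No miR-24 was named in the known lists, and a match of the locus to MIR24-2 by sequence was not tested.

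The sequence shared by chr2:105673494-105673514 and chr20:8107877-8107897 had 15 reads on day 10 and 2 genomic hits, so the reads of the 2 loci cannot be told apart. The chr2 locus was 3036 bases from a miR-133 hairpin and the chr20 locus 1234 bases from the miR-1773 hairpin. In RefSeq, MIR133A1 on chromosome 2 neighbours MIR1-2, and MIR1773 on chromosome 20 neighbours MIR1-1 and MIR133A2. The star strands of the 2 loci differed, with 1 read at chr2 and 2 at chr20.
chr2 star strand: acatacttctttatgtaccca
chr20 star strand: acatacttctttatatgccca

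Another locus beside miR-133, chr23:4663912-4663934, had 10 reads on day 8 and lay 82 bases from the miR-133 hairpin, where RefSeq lists MIR1B and MIR12248 as neighbours of MIR133C. These loci were listed on days 8 and 10, while the name miR-1 was absent from all known lists. Whether they are the RefSeq genes named here was not tested by sequence.

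At chr4:58651920-58651940, 4 reads on day 10 came from a locus 227 to 486 bases from 3 hairpins of miR-302, a cluster known from early embryos and pluripotent cells of vertebrates. It shared the seed and 20 bases in a row with the listed miR-302 sequence. The other loci with a known seed were chr3:101703659-101703679 (miR-181, 2 reads) and chr7:5777365-5777385 (miR-456, 3 reads), and each shared a run of 8 bases. In all, 5 of the 287 loci had the seed of a listed known miRNA, and 2 of these were the length forms of the chr6 5′ arm. Over the GC-low loci, 278 distinct seeds were found, and 3 seeds occurred in more than 1 hairpin.

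The locus of day 4, chr17:5577871-5577892, had 6 reads and 3 star reads. Its hairpin overlapped the miR-2964 hairpin on the opposite strand by 58 bases, and it was the only GC-low locus opposite a known hairpin. Among loci near each other, 2 pairs of hairpins lay within 10000 bases on 1 strand, at chr20:8107877-8107897 with chr20:8112103-8112123 and at chr7:16409793-16409816 with chr7:16417083-16417103.

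A star strand was listed for 17 of 287 GC-low loci (5.92%, Wilson interval 3.73 to 9.28%), against 12 of 231 GC-rich loci (5.19%), 44 of 96 loci on known hairpins (45.8%) and 151 of 273 known loci (55.3%). A star read is more readily seen where reads are many. Among loci with at least 10 reads, a star strand was listed for 11 of 45 GC-low loci (24.4%), 9 of 53 GC-rich loci, 42 of 82 loci on known hairpins (51.2%) and 147 of 252 known loci (58.3%). Depth was still unlike. Of the loci with at least 10 reads, 8 GC-low loci, 9 GC-rich loci, 49 loci on known hairpins and 186 known loci reached 100 reads. The median per GC-low locus and library with at least 10 reads was 27.5 reads. Medians of another kind, of the highest reads per locus with no read minimum, were 121.5 over loci on known hairpins and 723 over known loci. The most star reads of a GC-low locus, 17, belonged to chr3:79585146-79585166 with 109 reads on day 10. chr10:5209737-5209757 had 34 reads and 7 star reads on day 10, and the pair of length forms at chr1:60293954-60293975 (17 reads, day 6) and chr1:60293953-60293975 (12 reads, day 8) had 8 and 4. At chr13:17656194-17656216, 14 reads on day 8 came with 2 star reads.

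The hairpins were compared with those of known loci of like GC content, since GC chose the loci and bears on the energy. The median GC was 45.0% for the 287 GC-low loci and 45.3% for the 245 known loci below 55%. The median energy per nt was -0.343 kcal/mol (quartiles -0.406 and -0.294) against -0.437 (-0.477 and -0.399) for those known loci and -0.429 for the 83 loci on known hairpins below 55%. The share of mature bases that were paired had a median of 77.3% in GC-low loci, 78.3% in GC-rich loci and 85.7% in known loci. GC-rich hairpins had a median of -0.512 kcal/mol per nt at a median GC of 65.6%. These values are descriptions, with no test, and the highest value of a GC-low hairpin was -0.251 kcal/mol per nt.

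**Figure D4:**
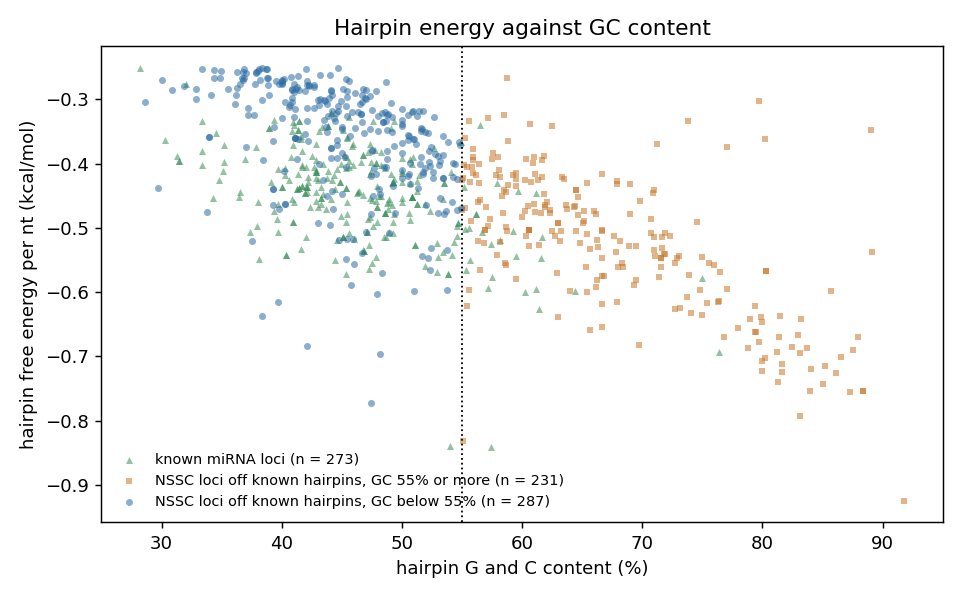
Hairpin free energy per nt (kcal/mol) against hairpin GC content (%), 1 point per locus, for the 287 GC-low loci, 231 GC-rich loci and 273 known loci, with a dotted line at 55%. Below 55% the GC-low loci lie mostly above the known loci, with medians of -0.343 and -0.437.

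The mature sequence was 21 nt at 206 loci, 22 nt at 34, 23 nt at 29 and 24 nt at 18. It began with T at 111 of 287 loci (38.7%, Wilson interval 33.2 to 44.4%), with A at 76, with C at 52 and with G at 48. T made up 27.8% of the other positions. The share with T first was 25.1% in GC-rich loci, where T made up 17.8% of the other positions, and 59.6% in known loci below 55%, where it made up 29.8%. By library, T was first in 11 of 15 GC-low loci on day 6, in 10 of the 16 loci of day 8, in 64 of the 189 loci of day 10 and in 39 of the 82 loci of day 12. Among the 45 loci with at least 10 reads it was 57.8%.

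In 5 libraries that held loci of each kind, GC-low and GC-rich loci were compared by measures that GC did not choose. The median log2 reads were lower in GC-low loci in 3 libraries, higher in 1 and equal in 1, with a mean difference of -0.26 ± 0.67 (SD, n = 5). The exact two-sided sign-flip permutation test over libraries gave p = 0.625. The median mature length differed by -0.20 ± 0.45 nt, p = 1 by the same exact test, with the day 4 library, of 1 locus each, the only one with a difference. On days 8 and 10 all sequences of both kinds were 23 and 21 nt long, so no difference in length could arise there. On day 10 the median reads of both kinds also stood at the list's lowest value of 2. The median hairpin length differed by 1.30 ± 13.7 nt, exact p = 0.938. The share of loci with 1 genomic hit was higher in GC-low loci in 3 of 5 libraries, by 2.58 ± 2.77 percentage points, exact p = 0.25. Adjusted over the 4 measures every p was 1, and the smallest p that 5 libraries allow is 0.0625, so no difference could pass 0.05.

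Over all loci, 279 of 287 GC-low loci (97.2%) had 1 genomic hit, against 212 of 231 GC-rich loci (91.8%) and 76 of 96 loci on known hairpins (79.2%). The 8 others included the chr8 locus with 6 hits, the chr2 and chr20 pair, and chr1:39246024-39246044 with 3 hits, a repeat of TG with 71 reads on day 12. Reads of these cannot be assigned to 1 place.

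GC-low loci were on 26 chromosomes. Chromosome 1 held 44, chromosome 3 held 40, chromosome 2 held 34 and chromosome 4 held 30, followed by chromosome 8 with 16 and chromosomes 5 and Z with 14 each. Chromosomes 1 to 5 and Z together held 176 of 287 loci (61.3%), against 110 of 231 GC-rich loci (47.6%) and 133 of 273 known loci (48.7%). The small chromosomes of birds are known to be richer in GC than the large ones, and GC chose the loci. Among known loci below 55% GC, chromosomes 1 to 5 and Z held 118 of 245 (48.2%). Among NSSC loci on known hairpins below 55% GC they held 39.8%. The order of these shares is a description, and its cause was not tested. The + strand held 158 loci and the - strand 129, and the mature sequence was on the 3′ arm at 153 and on the 5′ arm at 134.

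**Figure D5:**
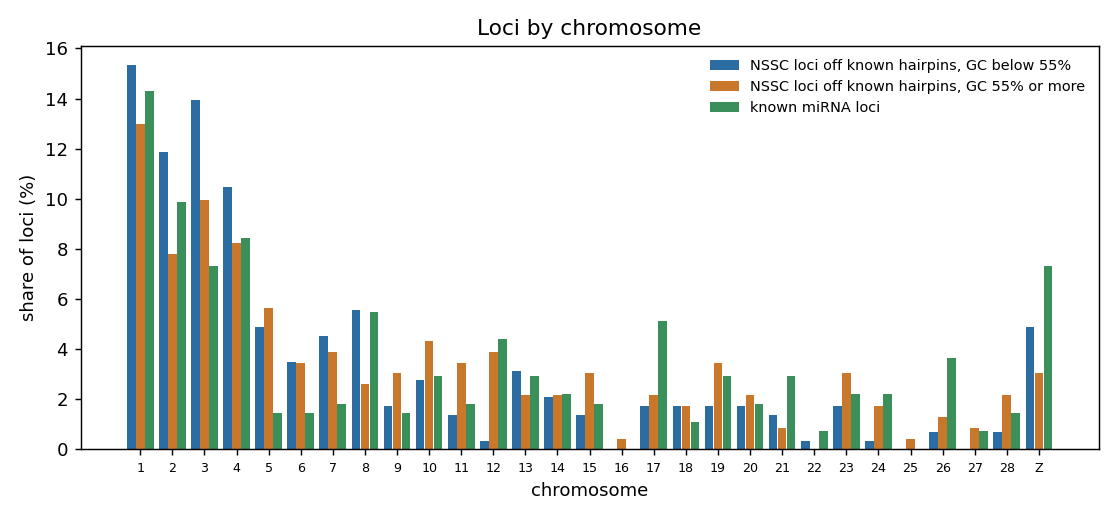
Share of loci (%) on each chromosome for GC-low loci, GC-rich loci and known loci. Chromosomes 1 and 3 hold the largest shares of the GC-low loci, 15.3% and 13.9%.

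The hairpins were read for letters found in other small RNAs. Box C/D snoRNAs, which guide methylation of rRNA, carry a C box that contains TGATGA and a D box with the letters CTGA downstream of it. The first motif was in 16 of 287 GC-low hairpins on the listed strand (5.57%) and 6 on the other strand, against 2 of 231 GC-rich hairpins (0.866%), 2 of 96 on known hairpins and 3 of 273 known hairpins (1.10%). TGATGA followed by CTGA was in 6 GC-low hairpins (2.09%), 2 GC-rich hairpins and no known hairpin. On the other strand it was in 3, 0 and 0. Of the 5 GC-low loci with at least 50 reads on day 10, 3 had TGATGA followed by CTGA, at chr19:5110911-5110931 (150 reads), chr3:79585146-79585166 (109 reads) and chr18:7034371-7034391 (53 reads). Over all libraries 12 GC-low loci reached 50 reads, and these 3 were the ones with that order of letters. GGTTCNA, which lies in the B box of tRNA genes, was in 4 GC-low hairpins (1.39%), 3 GC-rich hairpins and 3 known hairpins, and on the other strand in 3, 1 and 7. The hairpin of chr11:1160745-1160766 ended within the motif, at GGTTCA, so the search could not count it. A tRNA origin of this locus was not tested. The minimum of 50 reads was not planned, and the next locus of day 10, with 45 reads, lacked these letters. Base composition differs between these kinds of hairpin, the letters were chosen after the sequences had been seen, and no match says what an RNA is.
chr19:5110911-5110931 (-): gTTGATGAtgataccccagaa
chr3:79585146-79585166 (+): aCGGATCCggcatctgagatg
chr18:7034371-7034391 (-): tCTTGTGAtgaatgactgaag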

How the data were processed

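Small RNA of chick embryo hearts was sequenced in 6 libraries, 1 per stage, and grouped by the stage in the sample labels. The authors trimmed adapters, mapped tags to the Gallus gallus v.2.1 genome with BLAT, searched miRBase and folded the hairpins. The submitters' processing notes also name TopHat and Cufflinks. The deposited abundance is a count of reads for each sequence, repeated at each of its loci. The RPM values of the authors equalled this count times 1 constant per library in every row compared, except on day 4. There 35 of 41 known rows matched the constant, and the NSSC names of the RPM list did not match those of the sequence list. RPM was taken there as reads times the constant. The hairpin GC content was deposited in percent, and the hairpin energy, a score in kcal/mol, was deposited by the authors too. The deposited p-value of each hairpin was not used. Lines left out were 9 emptied lines and 363 lines of the day 10 known list that held a sequence without name, position or abundance. Target predictions for known miRNAs were not used here.

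Lists were read by column position with Python 3.11.15, since the header of the day 6 known list is shifted by 1 cell. Values of a locus listed in several libraries were taken from the library with the most reads. Shares carry 95% Wilson intervals and reads 95% Poisson intervals (scipy 1.17.1), which leave out variation between embryos. Wilson intervals of locus shares treat loci as independent, although loci of 1 library share their source and some are length forms of 1 hairpin. GC-low and GC-rich loci were compared with an exact two-sided sign-flip permutation test over libraries, adjusted by Benjamini-Hochberg over 4 measures. The overlap rule and the test were tested on simulated data. RNAfold 2.7.2 gave an energy within 1 kcal/mol of the deposited one for 159 of the 278 hairpins whose letters and stated length matched, and deposited energies were used. RefSeq gene names came from another assembly, so only names and neighbours were used.

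The loci and lists were chosen with earlier results of these data known. Loci named are those in 2 or more libraries, the 3 with the most reads in each library, those with a star strand and at least 10 reads, those with a known seed, the 2 on each side of the GC limit and those within 10000 bases of each other. Loci near a known hairpin, opposite one, with several genomic hits or with a searched motif were named after their values had been seen. The alternatives were other GC limits, GC computed from the sequence, other overlap rules, read minimums, counting by sequence, and leaving out day 10.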

Additional observations from a re-analysis of the deposited data

How the results depend on the processing

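The number of GC-low loci was 215 to 368 under other GC limits and overlap rules, and was 118 with at least 6 reads, 45 with at least 10 reads and 103 without the day 10 library. The share on day 10 was 14.4% with at least 6 reads, 31.1% with at least 10 reads and 58.4% when only known hairpins of the same library were set aside. The share in 2 or more libraries was 9.32% with at least 6 reads, 20.0% with at least 10 reads, 9.71% without day 10 and 8.55% with overlapping hairpins joined, an alternative chosen after seeing the data. The share with a star strand was 11.0%, 24.4% and 14.9% with at least 6 reads, at least 10 reads and known hairpins of the same library only. The share with 1 genomic hit was 94.1%, 84.4% and 92.9% under the same 3 settings. The share that began with T was 48.3% with at least 6 reads, 57.8% with at least 10 reads and 49.5% without day 10. The median mature length was 22 nt under each of these last 3 settings. With at least 10 reads the median was 27.5 reads per locus and library, and the median energy per nt was -0.395 kcal/mol. With only the 4 libraries that held at least 5 loci of each kind, the difference in median log2 reads turned to 0.024 and that in median hairpin length to -4.38 nt. The cause of these changes was not tested, beyond the fewer loci that each read minimum leaves. The other 88 values under alternatives were counted as unchanged. For the differences over libraries this says little. The exact sign-flip test allowed no p below 0.0625 under any setting, so none could pass 0.05. Among them, the difference in share with 1 genomic hit went from 2.58 to 5.65 percentage points at a GC limit of 50. The median reads went from 3 to 7 with at least 6 reads and were also counted as unchanged. No paired analysis between stages was possible because each stage had 1 library from its own pooled RNA. Only GC-low and GC-rich loci could be compared within libraries.

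The day 10 list went down to 2 reads where the others stopped at 6, so numbers of loci per stage follow each list's minimum as well as the hearts, and the 2 cannot be told apart here. Length, read minimum and stage were not varied separately by the lists. Genomic origin of sequences with several hits was not resolved, and no genome was used.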
